A study of Homo sapiens with 4 samples.

Results

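Aminoacyl-tRNA synthetases are the enzymes that load each tRNA with its amino acid, the step that makes the genetic code hold in protein synthesis. Most amino acids have a pair of nuclear-encoded enzymes, one for the cytosol and one that is imported into mitochondria, where it serves the translation of the few proteins encoded by mitochondrial DNA. In human cells several cytosolic enzymes are bound together in a multi-synthetase complex. FMRP binds many mRNAs, and loss of its gene, FMR1, causes fragile X syndrome.

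The mRNAs of 36 synthetase genes were followed in RNA recovered with FMRP. The tested material was RNA from 2 anti-FLAG M2 immunoprecipitates (IP) of FlagHA-tagged FMRP, washed at 300 mM KCl, and it was set against RNA from 2 lysates taken before the IP. All 4 samples came from a Flp-In T-REx human embryonic kidney (HEK293) stable line, whose integrated transgene was induced with doxycycline at 1 µg/ml for 16 h, so the lysates express the tagged FMRP as well. Each sample was hybridized to 1 Affymetrix Human Genome U133 Plus 2.0 array, which measures each RNA with probe sets, groups of short oligonucleotides. The labels do not say whether replicates came from separate cultures, so p-values measure only the spread between these samples, which may be technical. No mock IP was analysed here.

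The genes were taken by symbol: a probe set was included if its only gene symbol in the platform annotation was that of a listed synthetase. The family as a whole was selected on earlier results of these same arrays, with its IP and lysate values already known, so its changes and calls are given as a description and support nothing by themselves. Of the 36 genes, 33 had a probe set of their own, 69 probe sets in all among the 41091 with 1 symbol and the 54675 on the array. These were 17 of the 19 cytosolic enzymes (symbols ending in 1, with FARSA and FARSB), 15 of the 16 mitochondrial enzymes (symbols ending in 2) and TARS3, a threonyl enzyme outside both groups. The probe sets of MARS1, QARS1 and TARS2 carry several symbols, so no value is given for these 3. The cytosolic group holds GARS1 and KARS1, each of which encodes the cytosolic and the mitochondrial form of its enzyme.

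For each gene the brightest probe set on average was used, among those whose mean over the 4 arrays reached 4.70 on the log2 scale, the median of all probe sets. Of the 69 probe sets 58 passed, and every one of the 33 measured genes kept at least 1. The lowest value of a representing probe set on any array was 6.71, that of PARS2 in lysate replicate 1. Across the 13157 genes tested, r was 0.992 between the IP arrays, 0.993 between the lysate arrays and 0.873 to 0.903 between an IP and a lysate array, a description across genes, which are not replicates. Of 7 HEK293 markers 6 lay at or above that median, VIM and NEFL being the brightest. LHX1, with a mean of 4.92, was close to the median, and NEFM, at 3.91, lay below it. Of 10 markers of other cell types 2 reached the median, PECAM1 at 5.41 and GFAP at 4.89. The summed linear signal of all 10 was 181 and 194 on the IP arrays, against 159 and 158 on the lysate arrays. Its part in the results was not tested.

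Cytosolic synthetase mRNAs were mostly over-represented in the FMRP IP, and mitochondrial ones were mixed. In the IP, 15 of 17 cytosolic genes rose and 2 fell at an adjusted p of at most 0.05 (limma, Benjamini-Hochberg over all genes), while 35.0% of all genes were higher and 28.8% lower, together 63.9% called. Of 15 mitochondrial genes, 8 were higher, 4 were lower and 3 did not pass; 2 were lower without IP replicate 2 or without lysate replicate 2. The median change (IP minus lysate, log2) was 0.92 for cytosolic genes, 0.40 for mitochondrial genes and 0.08 for all genes. The cytosolic median exceeded the mitochondrial one by 0.62 on IP replicate 1 and by 0.43 on IP replicate 2, each set against the lysate mean, a difference that was not tested because the genes were chosen with it known. The change sets RNA recovered in the IP against RNA of the lysate. It does not measure how much of an RNA a cell holds or how many cells hold it.

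**Figure D1:**
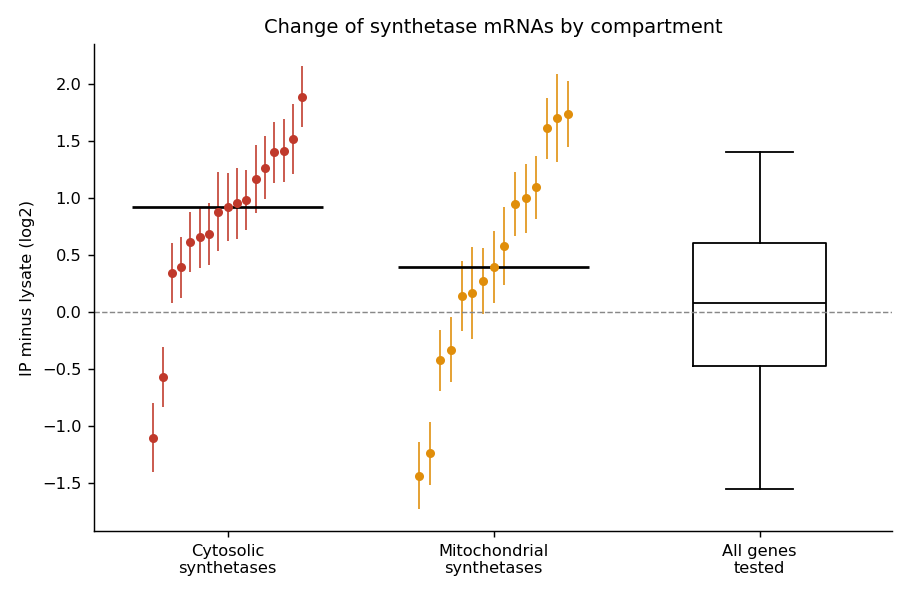
Change of each synthetase mRNA (y axis, IP minus lysate, log2; points with the 95% interval of the fit) for cytosolic and mitochondrial enzymes, with black lines at the medians of 0.92 and 0.40. The box shows all 13157 genes (median, quartiles, whiskers from the 5th to the 95th percentile); 2 cytosolic genes lie below 0.

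Changes are relative to the other probe sets, since the array medians lay between 4.67 and 4.71 and 2 µg of RNA was labelled for each sample. The hybridization controls are RNAs added in a fixed amount at the hybridization step, so they do not measure how much RNA was recovered. They lay 0.48 higher on the IP arrays. Centring each array on them moved the median of all genes to -0.40, the cytosolic median to 0.44 and the mitochondrial median to -0.083. With that centring 9 cytosolic genes were higher and 2 lower, and 6 mitochondrial genes were higher and 4 lower, while 15.9% of all genes were higher and 48.5% lower. The gap of 0.53 between the medians is the same under any such centring, because one number is taken from every gene on an array. Both IP arrays lay above both lysate arrays for 15 of 17 cytosolic and 9 of 15 mitochondrial genes (45.1% of all genes), and below them for 2 and 4 (37.2% of all genes). Called changes of at least 2-fold numbered 6 higher and 1 lower among cytosolic genes and 4 higher and 2 lower among mitochondrial genes, against 12.5% higher and 12.8% lower over all genes.

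AARS1, which charges alanine tRNA in the cytosol, had the largest rise of the family. Its signal was 11.91 and 11.99 on the IP arrays, against 10.08 and 10.05 on the lysate arrays, a 3.70-fold difference (log2 change 1.89 ± 0.11 SE, adjusted p = 3.4e-05). VARS1, the valine enzyme, had 11.18 and 11.25 on the IP arrays, against 9.57 and 9.82 on the lysate arrays. EPRS1 joins a glutamate and a proline enzyme in 1 chain of the multi-synthetase complex, and it stood at 11.72 and 11.59 in the IP, against 10.27 and 10.22 in the lysate. CARS1, the cysteine enzyme, reached 12.05 and 12.14 in the IP, against 10.69 in both lysates. In each of these genes the groups lay more than 1 log2 unit apart, and the changes of VARS1, EPRS1 and CARS1 were 1.52, 1.41 and 1.40 (adjusted p = 5.9e-05, 5.1e-05 and 4.9e-05).

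A middle group of cytosolic genes rose about 2-fold. SARS1, the serine enzyme, had 11.62 and 11.73 on the IP arrays, against 10.36 and 10.46 on the lysate arrays. HARS1, the histidine enzyme, had 10.86 and 11.00 in the IP, against 9.67 and 9.86 in the lysate. IARS1, the isoleucine enzyme of the complex, had 12.89 and 12.94 in the IP, against 11.93 and 11.94 in the lysate. Their changes were 1.26, 1.17 and 0.98 (adjusted p = 7.7e-05, 1.4e-04 and 1.9e-04). Both IP arrays lay above both lysate arrays in each, as in 45.1% of all genes. WARS1, the tryptophan enzyme, stood at 10.62 and 10.61 in the IP, against 9.57 and 9.81 in the lysate, a change of 0.92 (adjusted p = 4.7e-04). LARS1, the leucine enzyme of the complex, stood at 12.19 and 11.92 in the IP, against 11.05 and 11.31 in the lysate. LARS1 thus varied more between replicates than SARS1, HARS1, IARS1 or WARS1, and its change of 0.88 (adjusted p = 0.00125) did not pass with hybridization control centring, at 0.40.

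The smallest cytosolic rises were those of genes whose call depended on the scale. YARS1, the tyrosine enzyme, had 11.99 and 12.10 in the IP, against 11.35 and 11.37 in the lysate. GARS1, the glycine enzyme, had 11.88 and 11.96 in the IP, against 11.25 and 11.28 in the lysate. KARS1, the lysine enzyme of the complex, had 13.12 and 13.15 in the IP, against 12.50 and 12.54 in the lysate. These 3 changed by 0.68, 0.65 and 0.62 (adjusted p = 0.00126, 0.00151 and 0.00194) and did not pass with hybridization control centring, at 0.20, 0.17 and 0.14. NARS1, the asparagine enzyme, had 11.44 and 11.41 in the IP, against 11.06 and 11.01 in the lysate, and TARS1, the threonine enzyme, had 11.69 and 11.67, against 11.37 and 11.31. Replicates of both genes lay close together, and the changes were 0.39 and 0.34 (adjusted p = 0.0172 and 0.0298). With hybridization control centring they turned to -0.087 and -0.14, neither passing. TARS1 did not pass without any 1 of the 4 arrays, at 0.31 to 0.37, and NARS1 did not pass without IP replicate 1 (0.37) or lysate replicate 2 (0.36); with no filter on low values neither passed (adjusted p = 0.0511 for NARS1 and 0.0758 for TARS1). TARS1 also did not pass with its kept probe sets averaged (0.23, adjusted p = 0.178).

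RARS1 and FARSB were the 2 cytosolic genes that fell. RARS1, the arginine enzyme, is a member of the multi-synthetase complex, and it had 9.78 and 9.57 on the IP arrays, against 10.71 and 10.85 on the lysate arrays. It fell by 1.10 on the log2 scale (SE 0.13, adjusted p = 2.0e-04), which makes a lysate excess of 2.15-fold. FARSB encodes the beta subunit of the phenylalanine enzyme and had 10.05 and 10.02 in the IP, against 10.62 and 10.59 in the lysate. It fell by 0.57 on the log2 scale (SE 0.11, adjusted p = 0.00292). Both calls held with hybridization control centring, at -1.58 and -1.05, and without any 1 array.

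The subunits of the phenylalanine enzyme therefore had changes of opposite sign. FARSA, which encodes the alpha subunit, had 10.12 and 10.29 on the IP arrays, against 9.15 and 9.35 on the lysate arrays, a change of 0.95 ± 0.13 SE (adjusted p = 4.6e-04). The protein is built from alpha and beta subunits in equal number, yet the change of FARSA exceeded that of FARSB by 1.42 on IP replicate 1 and by 1.62 on IP replicate 2. Another FARSA probe set, nearly as bright (mean 9.67 against 9.73), changed by 0.35 (adjusted p = 0.149 in a fit over all 41091 probe sets with 1 symbol). With kept probe sets averaged, FARSA changed by 0.65 and FARSB by -0.57, so the size of the gap depends on the FARSA probe set. The FARSB probe set has the suffix _s_at, a class that can match several transcripts, and it was the only FARSB probe set above the filter. The pair was singled out after its values were seen.

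**Figure D2:**
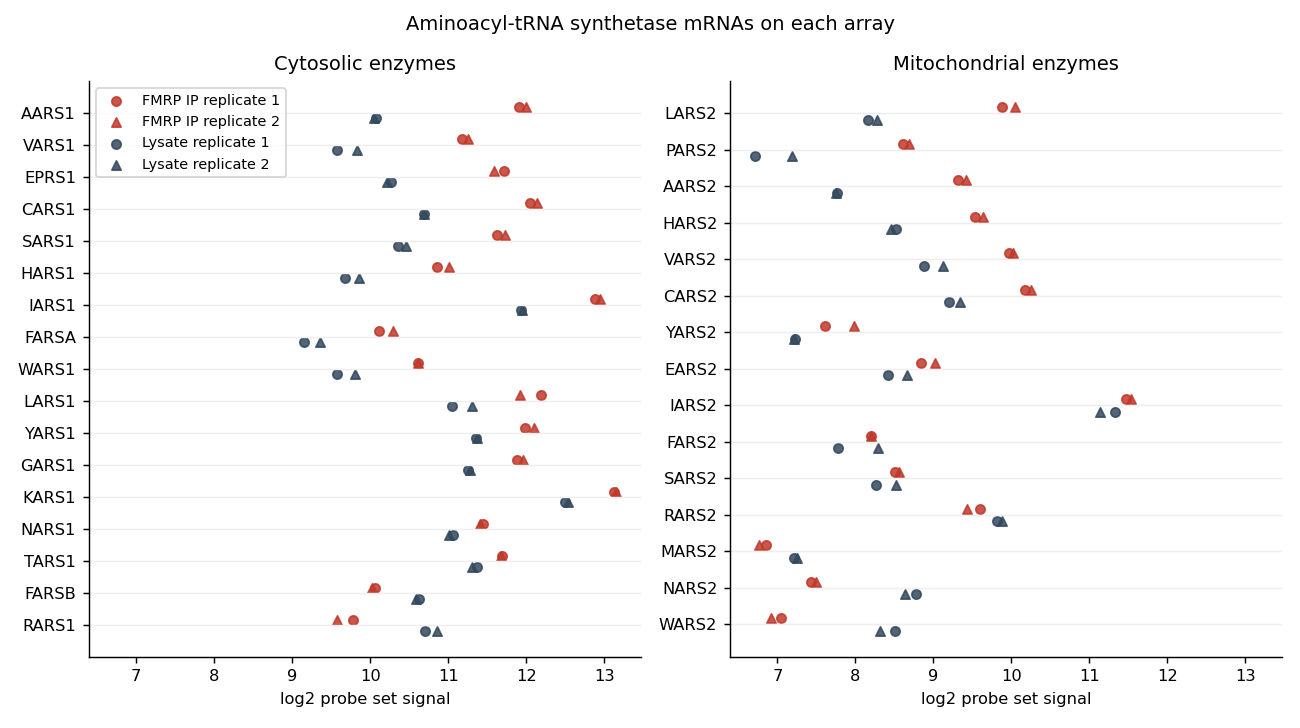
Log2 probe set signal (x axis) on each of the 4 arrays for the 17 cytosolic and 15 mitochondrial genes, ordered by change; IP in red above lysate in dark blue, circles for replicate 1 and triangles for replicate 2. FARSB and RARS1 on the left, and RARS2, MARS2, NARS2 and WARS2 on the right, are the genes whose IP points lie left of their lysate points.

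Genes inside and outside the complex, and of either catalytic class, included both directions, beside 35.0% of all genes higher and 28.8% lower. Of the 5 measured complex members, EPRS1, IARS1, LARS1 and KARS1 were higher and RARS1 was lower, with a median of 0.88. The 12 cytosolic genes outside it held 11 higher and 1 lower, with a median of 0.94. Synthetases fall into class I and class II by the fold of their catalytic domain. Of 7 cytosolic class I genes 6 were higher and 1 lower (median 0.92), and of 9 class II genes 8 were higher and 1 lower (median 0.65), EPRS1 belonging to both. Among mitochondrial genes the medians were 0.40 for 9 class I and 0.63 for 6 class II genes. These differences between subgroups were not tested.

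The mitochondrial genes spread from the second largest rise of the family to its largest fall. LARS2, the mitochondrial leucine enzyme, had 9.88 and 10.04 on the IP arrays, against 8.17 and 8.28 on the lysate arrays, a 3.34-fold excess in the IP (change 1.74 ± 0.12 SE, adjusted p = 3.6e-05). PARS2, the proline enzyme, had 8.61 and 8.69 in the IP, against 6.71 and 7.18 in the lysate. AARS2, the alanine enzyme, had 9.32 and 9.42 in the IP, against 7.76 and 7.75 in the lysate. Groups were far apart in both, although the PARS2 lysates differed from each other by more than its IP samples did, and the changes were 1.70 and 1.61 (adjusted p = 8.9e-05 and 3.6e-05). Each of the 3 stayed higher with hybridization control centring, at 1.26, 1.22 and 1.13.

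Further mitochondrial genes rose about 2-fold or less. HARS2, the histidine enzyme, had 9.53 and 9.63 in the IP, against 8.52 and 8.45 in the lysate. VARS2, the valine enzyme, had 9.97 and 10.02 in the IP, against 8.87 and 9.13 in the lysate. CARS2, the cysteine enzyme, had 10.17 and 10.25 in the IP, against 9.19 and 9.34 in the lysate. In these 3 genes both IP arrays lay above both lysate arrays, as in 45.1% of all genes. Their changes were 1.09, 1.00 and 0.95 (adjusted p = 1.3e-04, 3.5e-04 and 3.0e-04). YARS2, the tyrosine enzyme, had 7.61 and 7.98 in the IP, against 7.22 and 7.21 in the lysate, and changed by 0.58 (adjusted p = 0.00971). EARS2, the glutamate enzyme, had 8.84 and 9.03 in the IP, against 8.42 and 8.65 in the lysate, and changed by 0.40 (adjusted p = 0.0345). YARS2 did not pass without IP replicate 2 (0.39) or with hybridization control centring (0.10). EARS2 did not pass without IP replicate 2 (0.30), without lysate replicate 1 (0.28) or with quantile normalization (0.34), and turned to -0.083 with hybridization control centring. It also did not pass with no filter on low values (adjusted p = 0.0895), or with its kept probe sets averaged (0.13).

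IARS2, FARS2 and SARS2 did not pass. IARS2, the isoleucine enzyme, had 11.47 and 11.53 in the IP, against 11.32 and 11.13 in the lysate, and its change of 0.27 had an interval that reached below 0 (95% limits -0.02 and 0.56, adjusted p = 0.0882). FARS2, the single-chain phenylalanine enzyme, had 8.20 and 8.19 in the IP, against 7.78 and 8.29 in the lysate (change 0.17, limits -0.24 and 0.57). SARS2, the serine enzyme, had 8.50 and 8.56 in the IP, against 8.27 and 8.52 in the lysate (change 0.14, limits -0.17 and 0.44). The groups overlapped for FARS2 and SARS2, whose lysates differed from each other more than their IP samples did. FARS2 passed without lysate replicate 2 (0.42, adjusted p = 0.0466), and IARS2 passed with a spread estimate that depends on signal (adjusted p = 0.0186). With hybridization control centring all 3 changes lay below 0, at -0.21, -0.31 and -0.34, none passing.

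Among mitochondrial genes, 4 fell. WARS2, the tryptophan enzyme, had 7.04 and 6.92 on the IP arrays, against 8.51 and 8.32 on the lysate arrays, and was 2.70-fold higher in the lysate (log2 change -1.43 ± 0.13 SE, adjusted p = 6.3e-05). NARS2, the asparagine enzyme, had 7.43 and 7.50 in the IP, against 8.77 and 8.64 in the lysate, and was 2.36-fold higher in the lysate (change -1.24, adjusted p = 8.2e-05). Both stayed lower in each alternative that was run. MARS2, the methionine enzyme, had 6.85 and 6.77 in the IP, against 7.21 and 7.25 in the lysate. RARS2, the arginine enzyme, had 9.60 and 9.42 in the IP, against 9.81 and 9.87 in the lysate. For MARS2 and RARS2 both IP arrays lay below both lysate arrays, as in 37.2% of all genes. Their changes were small, at -0.42 and -0.33 (adjusted p = 0.0130 and 0.0454). MARS2 did not pass without IP replicate 2 (-0.38) or lysate replicate 2 (-0.40), and RARS2 did not pass without IP replicate 2 (-0.24), lysate replicate 1 (-0.36) or lysate replicate 2 (-0.30), nor with no filter on low values (adjusted p = 0.105) or with suffixed probe sets left out (adjusted p = 0.0555).

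TARS3, the additional threonyl enzyme, had 7.83 and 7.93 on the IP arrays, against 7.11 and 7.03 on the lysate arrays. It changed by 0.81 (adjusted p = 5.6e-04), and by 0.33 without passing under hybridization control centring.

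Enzymes for the same amino acid could be set side by side in 13 pairs over 12 amino acids, FARSA and FARSB each being paired with FARS2. With the brightest probe sets, the cytosolic change was above the mitochondrial one in 10 pairs and below it in 3. With kept probe sets averaged, the change of SARS1 was below that of SARS2 (-0.41 against 0.14). That of YARS1 was then below that of YARS2 (-0.21 against 0.58), and the other pairs kept their order. With the brightest probe sets, both genes were higher in 6 pairs and both lower in 1, beside 35.0% of all genes higher and 28.8% lower. In 2 pairs the cytosolic gene was higher and the mitochondrial gene lower. These opposite pairs were tryptophan and asparagine: the change of WARS1 exceeded that of WARS2 by 2.30 and 2.42 on IP replicates 1 and 2, and the change of NARS1 exceeded that of NARS2 by 1.68 and 1.58. NARS1 did not pass with hybridization control centring, as given above. LARS1, YARS1 and YARS2 did not pass with that centring either, so the leucine and tyrosine pairs no longer had both genes higher. Leucine ran the other way, with the change of LARS1 minus that of LARS2 at -0.64 and -1.08. Arginine was the pair with both genes lower.

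**Figure D3:**
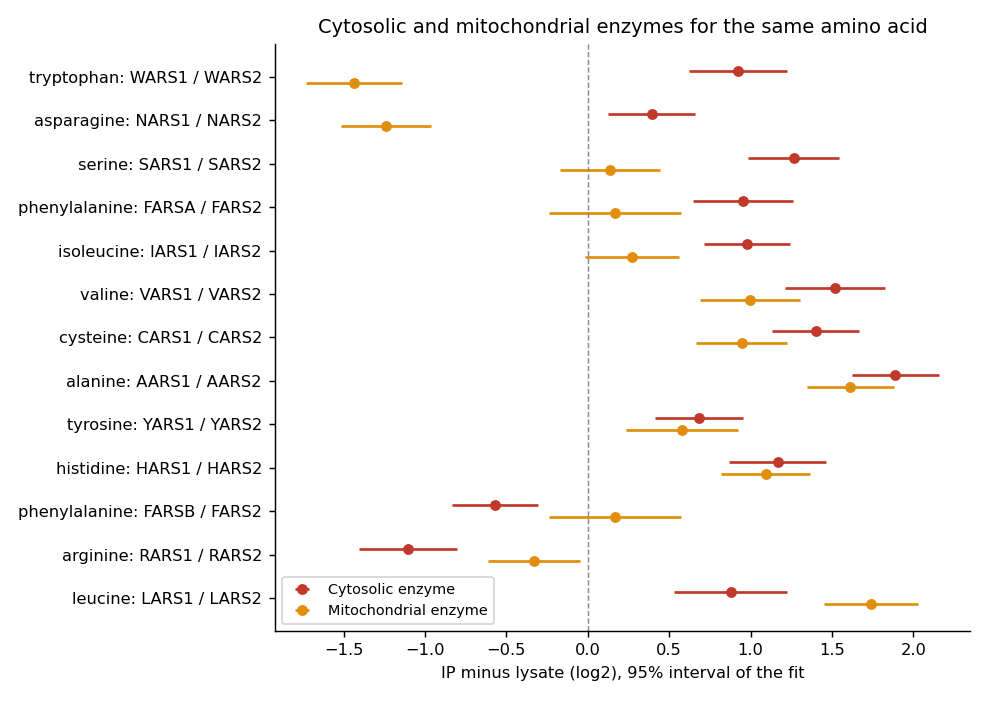
Change (x axis, IP minus lysate, log2) of the cytosolic enzyme (red, upper) and the mitochondrial enzyme (orange, lower) for each amino acid, with the 95% interval of the fit. From top to bottom the cytosolic minus mitochondrial difference runs from 2.36 for tryptophan to -0.86 for leucine.

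The histidine pair was nearly equal, the change of HARS1 exceeding that of HARS2 by 0.05 on IP replicate 1 and by 0.10 on IP replicate 2. It was not alone in this: with the brightest probe sets and both IP arrays, the difference was 0.07 for histidine, 0.10 for tyrosine and 0.28 for alanine. HARS1 and HARS2 are neighbours on opposite strands, and the bases between their annotated starts are shown because the 2 genes are transcribed away from this 1 short stretch of DNA. On GRCh38.p14 it is chr5:140691371-140691454, 84 bases on the plus strand, with the HARS1 start at 140691370 (minus strand) just before it and the HARS2 start at 140691455 (plus strand) just after it, from RefSeq. Capitals mark matches to CCGGAAG, the core of sites for ETS-family transcription factors, searched on both strands:
HARS1-HARS2 interval: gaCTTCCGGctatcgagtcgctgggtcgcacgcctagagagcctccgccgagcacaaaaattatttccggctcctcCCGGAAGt
There was 1 match on each strand, without overlap. Of the 35116 RefSeq promoter entries, 5.11% hold the motif in the 84 bases before the start. A match is a run of letters and not a measured site, and 30 of the 36 genes had a promoter entry. Whether this stretch has any bearing on the changes between IP and lysate was not tested.

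Where a gene had several probe sets above the filter, their changes mostly shared a sign. Of 18 such genes, 14 had changes of 1 sign and 4 had both signs, and 15 genes had 1 probe set. Over all 69 probe sets, 32 were called higher and 8 lower in the fit over probe sets, in which 18.2% of probe sets were higher and 16.5% lower. Those shares cover all 41091 probe sets with 1 symbol, without the filter. Of the 69, 58 passed the filter, with all 32 higher calls and 7 of the lower ones, so the shares are of an unlike set. CARS1 probe sets changed by 1.40, 1.40 and 2.10, those of LARS1 by 0.67 to 1.34, those of KARS1 by 0.62 and 1.35, and those of LARS2 by 1.59 and 1.74. The other WARS2 probe set changed by -0.65 and the other RARS2 probe sets by -0.53 and -0.35. EPRS1 had 2 probe sets at 1.41 and 1.22 and 1 at 0.12. CARS2 and EARS2 held changes of either sign because of probe sets near 0, at -0.04 for CARS2 and at -0.08 and -0.03 for EARS2.

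SARS1 and YARS1 were the genes with probe sets called in opposite directions. The brighter SARS1 probe set changed by 1.26, while the dimmer one had 4.93 and 4.45 on the IP arrays, against 6.81 and 6.75 on the lysate arrays, a change of -2.09 (adjusted p = 0.00169 over probe sets). The brighter YARS1 probe set changed by 0.68, while the dimmer one had 4.77 and 4.92 in the IP, against 5.92 and 5.95 in the lysate, a change of -1.10 (adjusted p = 0.00311 over probe sets). Both dim probe sets thus stood near the array medians on the IP arrays, and which transcripts they detect was not tested. When all kept probe sets of a gene were averaged, SARS1 was lower (-0.41, adjusted p = 0.0156) and YARS1 did not pass (-0.21), and with _x_at, _s_at and _a_at probe sets left out YARS1 was represented by the dim probe set, at -1.10.

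**Figure D4:**
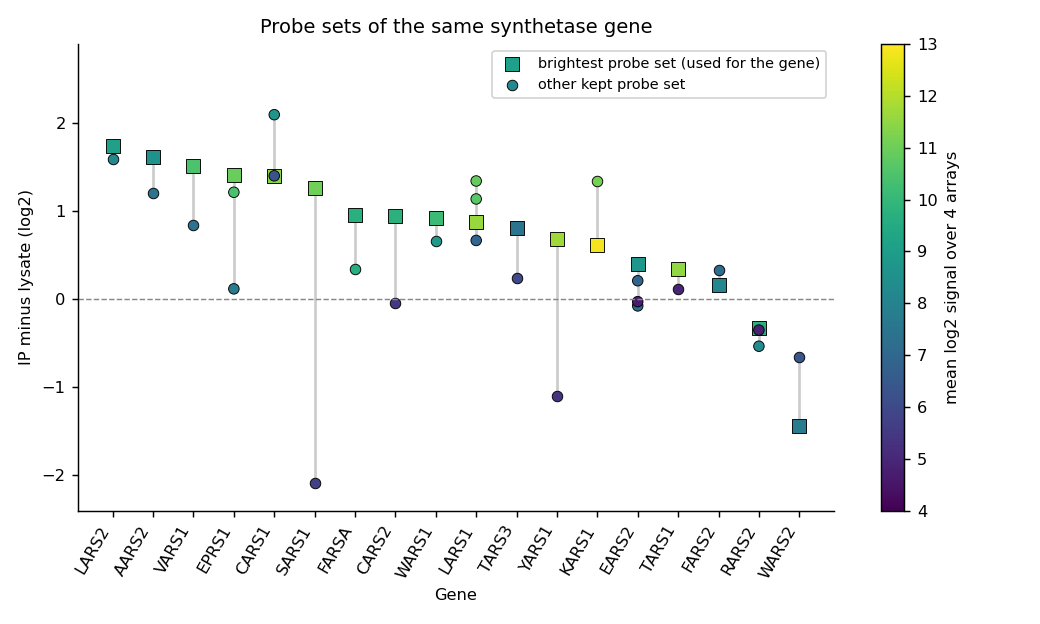
Change (y axis, IP minus lysate, log2) of each probe set above the filter for the 18 genes with several, ordered by the brightest probe set (squares); circles are the other probe sets and colour is the mean log2 signal. SARS1 and YARS1 have a bright probe set above 0 and a dim one at -2.09 and -1.10.

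Most genes that act beside the synthetases were lower in the IP. It holds 15 genes for partners, proofreading and alternative routes of tRNA charging, of which 10 were tested. Of these, 1 was higher and 7 were lower (median -0.49), while 35.0% of all genes were higher and 28.8% lower. The counts were the same under hybridization control centring, where 15.9% of all genes were higher and 48.5% lower. GATB, a subunit of the amidotransferase that makes glutaminyl-tRNA in mitochondria, had 8.18 and 8.33 on the IP arrays, against 7.26 and 7.20 on the lysate arrays (change 1.02, adjusted p = 2.0e-04). GATC, another subunit of the same enzyme, had 6.83 and 6.52 in the IP, against 8.12 and 8.03 in the lysate (change -1.40), and QRSL1, its catalytic subunit, changed by 0.20 without a call; both are named after their values were seen. GATB and GATC were thus separated in opposite directions, each beyond the spread of its replicates. DTD2, which removes wrongly attached amino acids from tRNA, had 6.40 and 5.72 in the IP, against 8.65 and 8.60 in the lysate (change -2.56, adjusted p = 4.7e-05), and PTRHD1, named for its peptidyl-tRNA hydrolase domain, changed by -2.13. AIMP1, a scaffold of the multi-synthetase complex, stood at 9.01 and 9.08 in the IP, against 9.02 and 8.76 in the lysate, with overlapping groups.

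In the remaining lists 37.5% to 42.9% of genes were higher and 32.5% to 35.7% lower, near the shares of all genes (35.0% and 28.8%). Of 40 genes for tRNA processing, modification and export, 15 were higher and 13 lower (median 0.15); ELAC2, the nuclease that trims the 3' end of tRNA precursors, and POP1, a subunit of RNase P, changed by 1.64 and 1.45, and ELP5, an Elongator subunit, by -1.78. Mitochondrial translation factors held 6 higher and 5 lower of 14 genes (median 0.21); LRPPRC, which stabilizes mitochondrial mRNAs, and TUFM, the mitochondrial elongation factor Tu, changed by 0.94 and 0.80, and SLIRP, the binding partner of LRPPRC, by -1.35. Of 24 amino acid response genes, which like many cytosolic synthetase genes are induced through ATF4, 9 were higher and 8 lower (median -0.01). SLC7A11, the cystine transporter, and the transcription factor gene CEBPG changed by -1.09 and -0.85, and the lipoprotein receptor gene VLDLR by 1.35. With hybridization control centring these 3 medians were -0.33, -0.27 and -0.49, with 7 higher and 20 lower, 1 and 6, and 2 and 13 genes (15.9% higher and 48.5% lower over all genes), and with quantile normalization the last was 0.01.

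**Figure D5:**
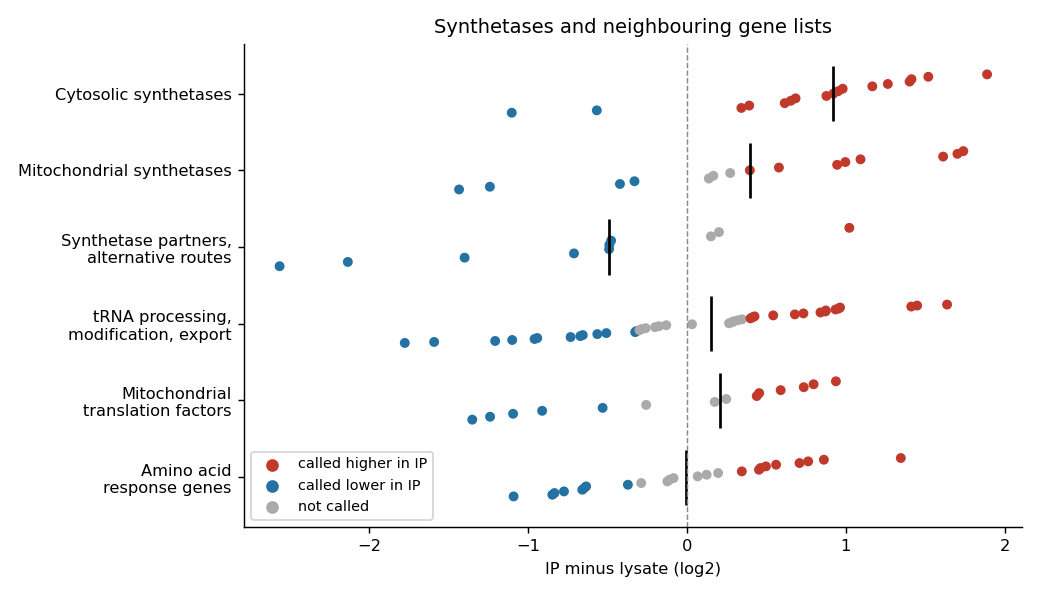
Change (x axis, IP minus lysate, log2) of each tested gene in the synthetase groups and 4 neighbouring lists; red and blue points were called higher and lower, grey points were not called, and black lines are medians. The synthetase medians are 0.92 and 0.40, and the partner list lies lowest at -0.49.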

How the data were processed

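Values were the deposited log2 probe set signals of 4 Affymetrix arrays, a scale read from their range and near-equal distributions. How the authors corrected background, summarised probes and normalized the arrays is not given in the sources used here. Depth has no meaning for arrays, and their number limits the precision. Probe sets with 1 gene symbol took current names by Entrez gene number from the RefSeq table of GRCh38.p14 (41037 of 41091 matched), and promoter sequences came from RefSeq. The change, IP minus lysate, came from a linear model in limma 3.58.1 (R 4.3.3, empirical Bayes by eBayes after lmFit, without covariates, 2 residual and 5.51 prior degrees of freedom) over 13157 genes, and in another fit over all probe sets with 1 symbol, with Benjamini-Hochberg adjustment and a threshold of 0.05. The fit was run on simulated data, with changes in far fewer genes than were called here, to check that known changes are recovered. That check does not measure false calls on these arrays. Plots used pandas 2.3.3 with matplotlib 3.10.9.

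The synthetase genes and all lists were chosen with earlier results of these data known. All synthetase genes with a value are named. From each other list the text names 3 called genes: the 2 that moved most to the side of the list's median and the 1 that moved most to the opposite side; further names are marked in the text or, for AIMP1 and the marker genes, were chosen after their values were seen. Alternatives covered normalization, hybridization control centring, a block for the replicate number, which probe set stood for a gene, the filter, a trended spread, a fold threshold and each array left out. Listed genes without a single-symbol probe set above the filter were not analysed here.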

Additional observations from a re-analysis of the deposited data

How the results depend on the processing

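With hybridization control centring, 2090 of all genes were higher and 6385 lower, 9 cytosolic synthetase genes were higher, and the medians were 0.44 (cytosolic) and -0.083 (mitochondrial), with EARS2 at -0.083, NARS1 at -0.087 and TARS1 at -0.14. When all kept probe sets of a gene were averaged, 12 cytosolic synthetase genes were higher and 3 lower, and 7 mitochondrial ones higher and 4 lower. Over all genes that setting gave 4531 higher and 3877 lower. The cytosolic median was then 0.79 and the mitochondrial median 0.27, with SARS1 at -0.41 and YARS1 at -0.21. With _x_at, _s_at and _a_at probe sets left out, 11 cytosolic genes were left, of which 9 were higher and 2 lower, and YARS1 stood at -1.10. That setting gave 3360 higher and 2858 lower of 9977 genes. With a change of at least 2-fold required, 1639 genes were higher and 1683 lower, with 6 and 1 among cytosolic and 4 and 2 among mitochondrial synthetase genes. Leaving out 1 array gave 2 to 4 lower mitochondrial genes, a cytosolic median of 0.80 to 1.01 and a gap between the medians of 0.43 to 0.62; where 1 sample is left in a group, it is assumed to vary like the other group. The replicate numbers mark no stated pairing (the replicate differences of the groups correlated at 0.10 over genes), and with the replicate number as a block 15 and 2 cytosolic and 8 and 4 mitochondrial genes were called higher and lower, with 4730 and 3868 over all genes. Quantile normalization, either change of filter and the trended spread kept each of these counts of synthetase genes within 1.5 times. Signals carry no detection calls, so dim probe sets have no known floor.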

Other observations

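The protein subunits of RNase P, the enzyme that trims the 5' end of tRNA precursors, did not move together, a pattern singled out after the values were seen. Over all genes 35.0% were higher and 28.8% lower, so calls in both directions are common. POP1 had 9.11 and 9.05 on the IP arrays, against 7.59 and 7.67 on the lysate arrays, a change of 1.45. POP5, POP7, RPP14, RPP30 and RPP40 were called lower, with changes of -0.94, -1.10, -0.67, -0.56 and -0.96, while POP4 (-0.18), RPP38 (-0.29) and RPP25 (0.32) were not called. Elongator, which modifies the wobble base of tRNAs, was split as well, with ELP2 and ELP3 higher at 0.87 and 0.54, ELP4 and ELP5 lower at -0.51 and -1.78, and ELP6 not called at 0.03. With hybridization control centring every one of these subunit changes is 0.48 lower, and 15.9% of all genes were higher and 48.5% lower. Calls of the subunits with that centring are not given here.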
